A study of Homo sapiens with 3 samples.

Results

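The subject is the EP300 peaks that the authors assigned to PODXL, a gene on the minus strand of chromosome 7, in naive human embryonic stem cells. Members were selected on measured values, the EP300 peaks called in each sample: all rows of both deposited peak tables that name PODXL as the gene, with rows of equal interval joined into 1 peak. That gave 16 peaks of 65276 in replicate 1 and 17 of 64896 in replicate 2. Peaks of both replicates that overlapped were merged into reproducible regions, and 15 of the 46263 such regions belonged to PODXL. The locus was chosen with its peak counts already known, so its counts, positions and strengths are given as a description and without a test.

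Chromatin immunoprecipitation and sequencing was done on wild-type H9 cells, an established human embryonic stem cell line. All samples came from this 1 line, grown as naive cells over mouse embryonic fibroblasts in PXGL medium, which contains human LIF (10 ng/mL) and blocks MEK, tankyrase and protein kinase C with small-molecule inhibitors. There were 2 samples with an antibody against EP300 and 1 input sample without antibody. The input has no table of its own, and the labels do not say whether the EP300 samples are separate cultures, so their spread may be technical.

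PODXL encodes podocalyxin, a heavily sialylated transmembrane mucin of the CD34 family that coats kidney podocytes and the surface of human pluripotent stem cells, where it carries glycan epitopes used as stem cell markers. EP300 is a histone acetyltransferase and coactivator that is brought to promoters and enhancers by transcription factors. It has no DNA sequence preference of its own, and its binding away from promoters is widely used to map candidate enhancers. A peak shows where EP300 was enriched, and does not show which gene a distal site acts on.

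EP300 lay at the PODXL promoter and in a dense row of sites upstream, and no reproducible region lay deeper in the gene than the promoter ones. The reproducible regions were 2 at the promoter, within 3 kb of a start site, and 13 distal ones. All 13 were upstream of the gene and intergenic in the authors' annotation, between 7.92 and 51.1 kb from the upstream start site (131566132 to 131609302 on chromosome 7, GRCh38). They covered 21.5 kb, or 49.9% of that stretch. RefSeq places PODXL at 131500271 to 131556628 (GRCh38.p14), 56.4 kb long. From its 3′ end, 55.4 kb of the gene in replicate 1 and 54.6 kb in replicate 2 held no peak.

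**Figure D1:**
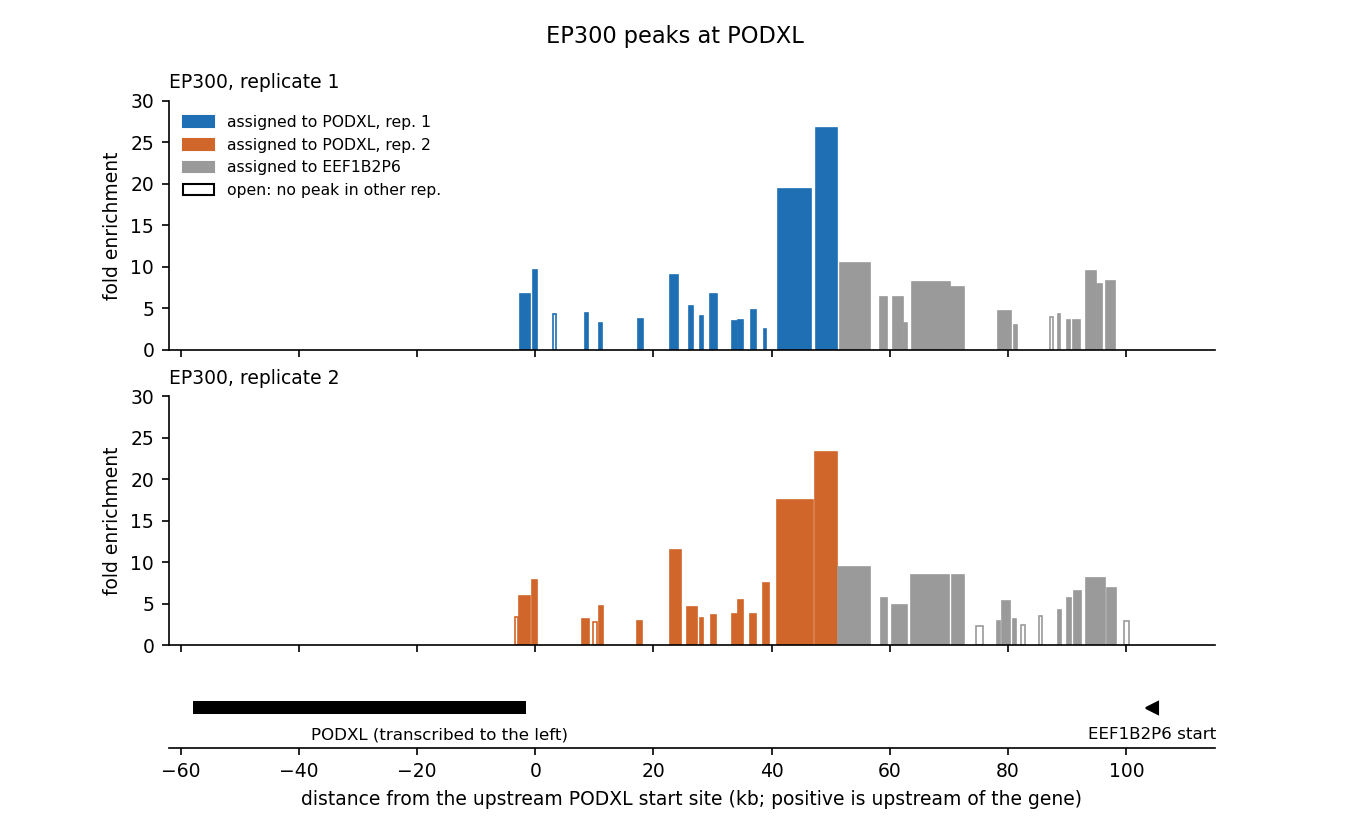
EP300 peaks within about 100 kb of PODXL in replicate 1 (top) and replicate 2 (middle), drawn to scale by position (kb from the upstream start site) and by fold enrichment at the highest summit; coloured peaks were assigned to PODXL, grey ones to EEF1B2P6, and open boxes had no counterpart in the other replicate. Away from the promoter, peaks lie on the upstream side only, and the highest PODXL peaks, at 26.7 and 23.3, stand next to the change of assigned gene.

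PODXL has 2 start sites in the authors' annotation, 1.65 kb apart, and a separate EP300 region covered each of them. Strength is given as the fold enrichment that the authors' peak caller wrote for the highest summit, and as its percentile in the peak list of that replicate, where 100 is the strongest. The upstream start site lay under a narrow peak of 660 bp in replicate 1 and 742 bp in replicate 2, with fold enrichment 9.61 and 7.90. Its single summit fell 79 bp inside the gene in replicate 1 and 96 bp inside it in replicate 2. This was the stronger of the promoter regions in both replicates, at percentiles 85.4 and 78.4.

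The downstream start site, near the RefSeq 5′ end, lay under a wider region (131555542 to 131557406). Its peak had 2 summits in each replicate, one on either side of the start site. The summit inside the gene had fold enrichment 6.69 in replicate 1, 316 bp from the start site, and 5.97 in replicate 2, 249 bp from it. The one outside had 4.70 at 435 bp in replicate 1 and 5.74 at 429 bp in replicate 2. Replicate 2 alone held a further small peak 1.25 kb inside the gene, with fold enrichment 3.43 at percentile 23.9.

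The strongest EP300 sites assigned to PODXL were the most distant of those so assigned. The row of sites itself ran on past them under another gene name, as given below. The farthest region (131605589 to 131609302), with its highest summit 48.5 kb upstream, reached fold enrichment 26.7 in replicate 1 and 23.3 in replicate 2. It ranked 135th of all peaks in replicate 1 and 369th in replicate 2, and 28th and 68th among peaks over 3 kb from a start site. It held 3 summits in each replicate, and each of the 3 lay within 14 bp of its partner in the other replicate. From the near to the far side, their fold enrichments were 9.40, 26.7 and 14.1 in replicate 1, and 10.2, 23.3 and 14.8 in replicate 2. The middle summit was the highest and the near one the lowest in both.

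Next to it, 448 bp closer to the gene, lay the widest region (131599110 to 131605140). In replicate 1 its peak spanned 5530 bp and was the 104th widest of the list, and in replicate 2 it spanned 6031 bp, the 72nd widest. The highest fold enrichment was 19.4 in replicate 1 and 17.5 in replicate 2. In both replicates the summits on the side away from the gene were the higher ones. The caller placed 7 summits in it in replicate 1 and 4 in replicate 2, and each of those 4 had a replicate 1 summit within 50 bp. Of the 3 additional summits in replicate 1, one was its highest, at 46.0 kb and 463 bp from the nearest summit of replicate 2.

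**Figure D2:**
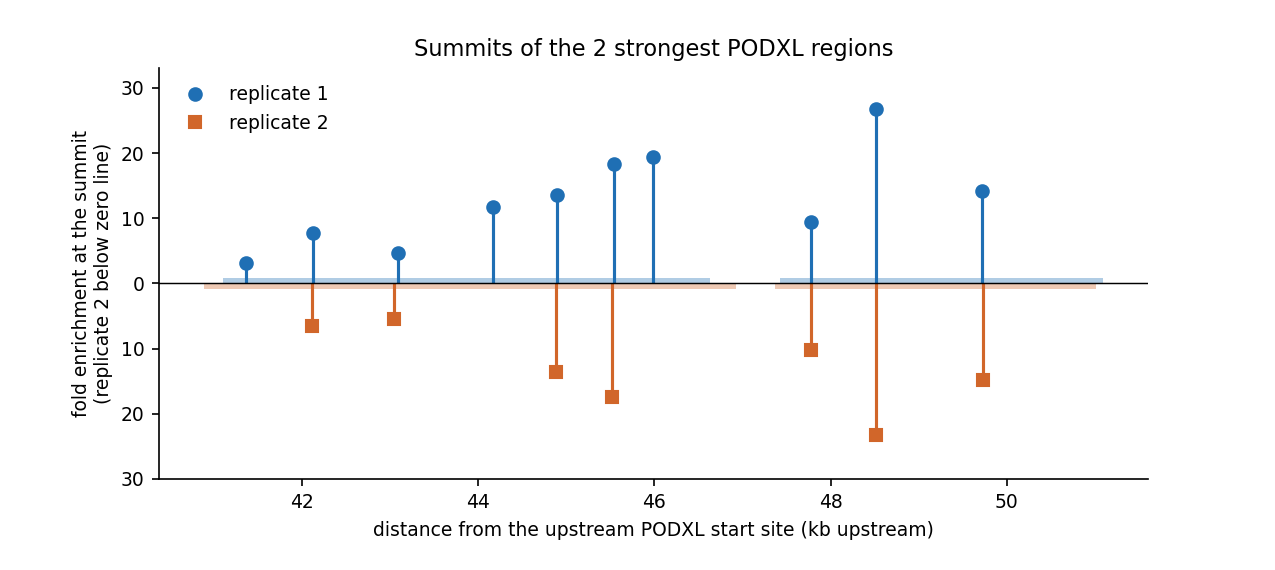
Summits in the 2 strongest PODXL regions, by distance upstream of the gene (kb) and fold enrichment at the summit, with replicate 1 above and replicate 2 below the zero line; shaded bars are the called peaks. The farther region has 3 summits at the same positions in both replicates, and the wide one has 7 in replicate 1 and 4 in replicate 2.

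These regions made up 9.75 kb, or 45.2%, of the distal sequence covered. They were also the only PODXL members above percentile 90 of either list. No other distal member came near them: fold enrichment over the remaining 11 had a median of 4.06 in replicate 1 (lowest 2.53, highest 8.99) and 3.73 in replicate 2 (2.99 to 11.5). That placed 4 of the 11 above the median of the list in replicate 1 and 5 in replicate 2.

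One of the 11 stood out, a region with its summit 23.3 kb upstream (131580951 to 131582793). It had fold enrichment 8.99 in replicate 1 and 11.5 in replicate 2, at percentiles 83.3 and 89.7, and its summits were 62 bp apart. These percentiles overlapped the range of the upstream promoter region.

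Between the promoter and this site lay the sparsest stretch, with 3 weak regions at 8.5, 11.1 and 17.6 kb. The one at 8.5 kb had fold enrichment 4.40 in replicate 1 and 3.22 in replicate 2. Values at 11.1 kb were 3.22 in replicate 1 and 4.78 in replicate 2, and those at 17.6 kb were 3.74 and 2.99. None of the 3 was above the median of both lists, and their highest summits lay 140 to 586 bp apart between replicates. The only other peaks here were seen in 1 replicate each, at 3.27 kb in replicate 1 (fold enrichment 4.39) and at 9.87 kb in replicate 2 (2.76).

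The other 7 regions formed a closer row between 26.3 and 39.1 kb. Those at 26.3 and 28.2 kb had fold enrichment 5.35 and 4.06 in replicate 1, and 4.58 and 3.35 in replicate 2. At 30.4 kb it was 6.71 in replicate 1 and 3.71 in replicate 2, with summits only 4 bp apart. The regions at 33.7 and 34.7 kb, the closest neighbours of the locus with 111 bp between them, had 3.51 and 3.63 in replicate 1, and 3.73 and 5.42 in replicate 2. At 37.1 kb the values were 4.81 in replicate 1 and 3.73 in replicate 2. Highest summits lay 280 and 287 bp apart between replicates at 33.7 and 26.3 kb, and at most 41 bp apart in the other 5 regions of the row.

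The region at 39.1 kb differed most in strength between the replicates. In replicate 1 it was the weakest PODXL member, 425 bp wide, with fold enrichment 2.53. Its -log10 q-value was 1.41, close to the lowest of that list, 1.30. In replicate 2 its width was 1025 bp, its fold enrichment 7.47 and its -log10 q-value 16.9. Its percentile was 2.06 in replicate 1 and 76.3 in replicate 2, yet the summits lay 3 bp apart.

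**Figure D3:**
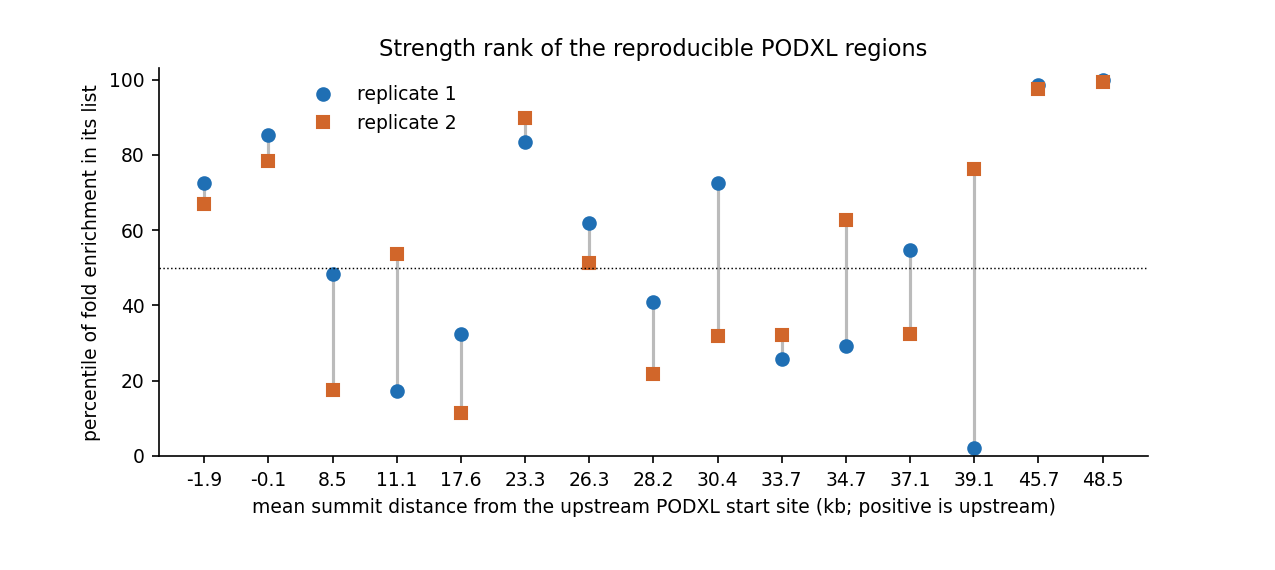
Percentile of fold enrichment within its own list for each of the 15 reproducible PODXL regions, ordered by distance from the upstream start site (kb, positive is upstream); circles are replicate 1, squares replicate 2, and the dotted line is percentile 50. The farthest pair of regions lies above 97 in both replicates, and the region at 39.1 kb spans from 2.06 to 76.3.

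By mean percentile over both replicates, the order began with the regions at 48.5 kb (99.6 ± 0.26, SD, n = 2), 45.7 kb (98.1 ± 0.82) and 23.3 kb (86.5 ± 4.49). The upstream promoter (81.9 ± 4.97) and the downstream promoter (69.8 ± 4.03) followed. Ranges of neighbours among these overlapped only for the 23.3 kb region and the upstream promoter. Below them came the region at 26.3 kb (56.6 ± 7.34), and the other 9 had means of at most 52.3 and SDs of 4.67 to 52.5. The order of these lower regions, the one at 26.3 kb included, was not resolved. Ranges at 30.4 kb (32.0 to 72.7) and 39.1 kb (2.06 to 76.3) also reached that of the downstream promoter.

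Most PODXL peaks had a counterpart in the other replicate. In replicate 1 it was 15 of 16 peaks (93.8%; Wilson 95% interval 71.7 to 98.9, counting error only), against 74.5% of all peaks in that list. In replicate 2 it was 15 of 17 (88.2%; 65.7 to 96.7), against 73.9% of all peaks. Among distal PODXL peaks, 13 of 14 were shared in each replicate (92.9%). Over all distal peaks the share was 65.8% in replicate 1 and 65.4% in replicate 2. These sets are not matched. Median widths were 806 bp at PODXL against 642 bp in replicate 1, and 940 against 669 bp in replicate 2. Median percentiles were 48.2 against 39.7 in replicate 1, and 41.9 against 39.5 in replicate 2. The intervals treat neighbouring peaks of 1 locus and library as independent, so they are no test of a difference. The 3 peaks without a counterpart were at percentiles 48.0, 23.9 and 6.38 of their lists. Where peaks were shared, they overlapped by at least 85.3% of the shorter one.

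Agreement in strength depended on the measure. Over the 11 distal regions outside the strongest pair, the percentiles in the 2 replicates differed by a median of 22.4 points, against 11.8 points for the 16024 distal regions of the same range of mean percentile. Differences above 20 points occurred in 7 of the 11, against 29.4% of those 16024. The upper end of that range, 86.5, was set by the region at 23.3 kb alone. The rest of the 11 had means of at most 56.6, so the comparison is only loosely matched. Spearman's rho of fold enrichment between replicates was 0.34 over the 13 distal members and 0.74 over all 20428 distal regions. Pearson's r of log2 fold enrichment was 0.81 over the 13 and 0.83 over all distal regions. The 13 include the strongest pair, whose high values in both replicates weigh heavily in Pearson's r. No r was taken without that pair, so 0.81 does not describe the agreement of the other 11. Without read counts, the part of depth in this could not be tested. Highest summits lay a median of 62 bp apart in the 15 PODXL regions and 59 bp in all regions, and 66.7% of PODXL regions had them within 200 bp, against 80.2% of all. Among distal regions alone, the median was 62 bp at PODXL and 78 bp in all, with 61.5% and 75.8% within 200 bp.

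Spacing was close and uneven. Summits of neighbouring PODXL regions were a median of 2.64 kb apart, from 0.981 kb for the pair at 33.7 and 34.7 kb to 8.63 kb between the promoter and the first distal region. Fold enrichment had no steady trend with distance from the gene. Spearman's rho was 0.26 in replicate 1 and 0.62 in replicate 2 over the 13 distal regions, and -0.22 and 0.37 without the strongest pair. These points share a locus and a library, and the values are descriptions.

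The row of sites did not end where the PODXL assignment did. The authors' annotation gives each distal peak to 1 gene, and the next peak outward was assigned to EEF1B2P6, a pseudogene, with only 465 bp between it and the last PODXL peak in replicate 1 and 255 bp in replicate 2. It began 51.6 and 51.3 kb from the upstream PODXL start site, and its near edge lay 47.8 kb from the EEF1B2P6 start in both. The strongest PODXL member was thus the last one inside the assignment. The peak just outside spanned 5053 bp in replicate 1 and 5318 bp in replicate 2, with 6 summits in each and fold enrichment 10.5 and 9.41.

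EEF1B2P6 held 12 reproducible regions between 51.3 and 98.2 kb from the PODXL start site. Median fold enrichment over the 15 PODXL regions was 4.81 in replicate 1 and 4.78 in replicate 2, and over the 12 EEF1B2P6 regions it was 6.41 and 6.12. The 15 include 2 promoter regions, while all 12 of EEF1B2P6 are distal. Over the 13 distal PODXL regions the medians were 4.40 in replicate 1 and 4.58 in replicate 2. The single strongest site was on the PODXL side, 26.7 and 23.3, against 10.5 and 9.41 on the EEF1B2P6 side. No region of either gene stood alone: with gaps of up to 2.5 times 5 kb bridged, all 27 formed 1 cluster of 101 kb (131555542 to 131656390), 7th of 25251 clusters by number of regions, a rank that 3 clusters shared. The rank depends on the gap allowed: with gaps of up to 25 kb bridged, the same 27 regions ranked 61st of 19088 clusters, a rank that 11 shared. With gaps of up to 5 kb bridged, 11 PODXL regions and 5 EEF1B2P6 regions stayed together, and the promoter pair and the regions at 8.5 and 11.1 kb formed pairs of their own.

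No reproducible region lay close to the cluster on either side. Replicate 2 alone had a weak peak just past each end, the one inside PODXL given above and one at the far end with fold enrichment 2.92. Past its far end the next reproducible region was 31.5 kb away, and on the side of the PODXL gene body the nearest one was 227 kb away, at MKLN1. That region had fold enrichment 6.86 in replicate 1 and 7.12 in replicate 2. MKLN1, which encodes the intracellular protein muskelin, is the flanking coding gene on that side. Its region of highest rank was a different, more distant one at its promoter (131109350 to 131111009). There fold enrichment was 12.1 in replicate 1 and 12.9 in replicate 2. The coding gene on the other side, PLXNA4, a receptor gene for semaphorins, starts or ends no nearer than 565 kb from the PODXL start site in RefSeq. It had 1 weak promoter region (2.78 and 3.33) and 11 distal regions of its own.

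Set beside other genes, PODXL ranked 30th of the 10494 genes with a distal region, with 13 against a median of 1, and 17 other genes also had 13. Among the 123 genes with at least 10, its median step of 2.64 kb was the 8th shortest, against a median of 4.95 kb. Its highest distal fold enrichment ranked 5th of the 123 in replicate 1 and 8th in replicate 2, where the medians were 10.6 and 11.7. Having all distal regions intergenic and upstream was shared by 6 of the 123, PODXL included. The rank by number is sensitive to the lists used: counted in a single list, unshared peaks included, it was 106th without replicate 1 and 116th without replicate 2. With a fold enrichment of at least 5 required, only 3 distal regions were counted and the rank was 139th.

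**Figure D4:**
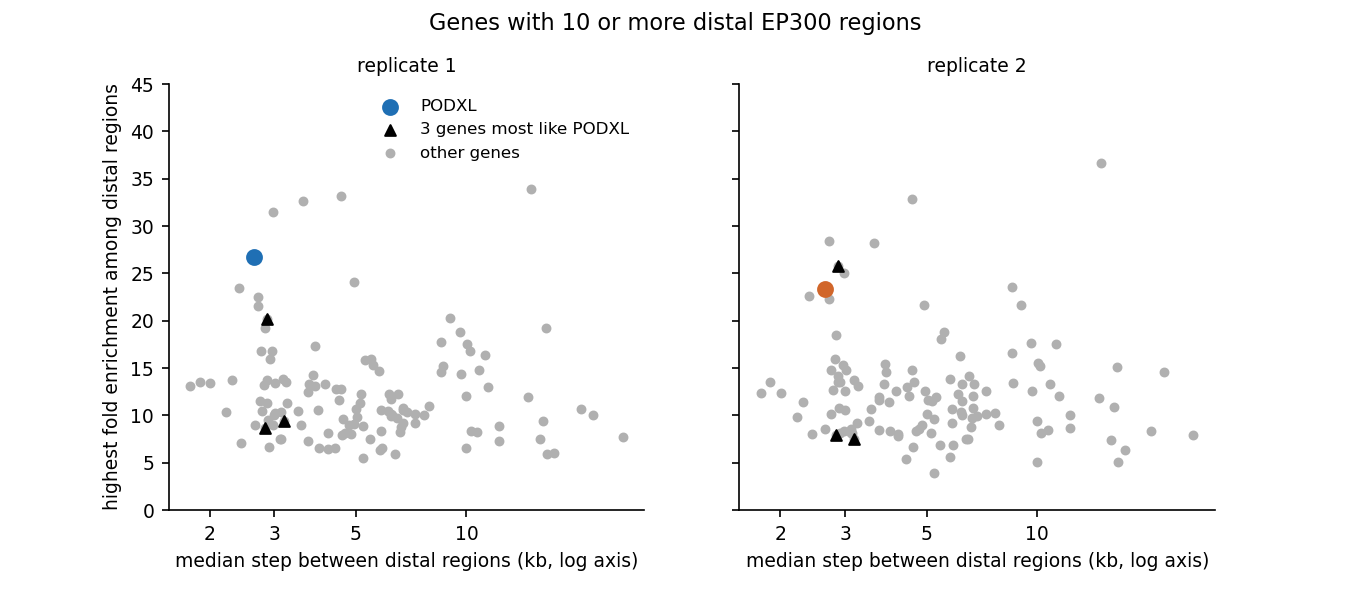
Genes with at least 10 distal EP300 regions, by the median step between neighbouring distal regions (kb, log axis) and the highest fold enrichment among them, in replicate 1 (left) and replicate 2 (right). PODXL, the large point, combines a short step of 2.64 kb with a high maximum of 26.7 and 23.3. Other genes share this combination, such as DNAJB8-AS1 with a step of 2.40 kb and maxima of 23.4 and 22.6. Triangles are the 3 genes closest to PODXL in number, step and median fold enrichment.

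The 3 genes most like PODXL were sought by the number of distal regions, their median step and their median fold enrichment in each replicate, as a distance over these 4 measures after scaling. They were RN7SL732P on the X chromosome (distance 0.444), ENSG00000236948 on chromosome 1 (0.489) and ENSG00000275613 on chromosome 17 (0.598). Each had 12 or 13 distal regions with a median step of 2.83 to 3.18 kb. The strongest distal region of PODXL, at 26.7 in replicate 1 and 23.3 in replicate 2, was above those of the first pair, which reached 8.67 and 9.37 in replicate 1, and 7.97 and 7.47 in replicate 2. ENSG00000275613 reached 20.1 in replicate 1 and 25.8 in replicate 2.

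No gene of 3 lists related to podocalyxin had more than 2 distal regions, against the 13 of PODXL. Low counts are usual, with a median of 1 over the 10494 genes with any distal region, so they say little about the listed genes. A promoter region was common, found at 67.9% of the 19974 RefSeq coding genes by the authors' assignment, so its presence at single genes says little about them. Its family members CD34 and PODXL2 both had a promoter region and no distal one. CD34, a marker of blood progenitors, reached fold enrichment 11.9 in replicate 1 and 10.1 in replicate 2, and PODXL2, which encodes endoglycan, reached 5.84 and 8.55. All 5 genes of its cytoplasmic partners had a promoter region and at most 2 distal ones. They were EZR, RDX and MSN, which link membrane proteins to actin, and the scaffold genes NHERF1 and NHERF2, named SLC9A3R1 and SLC9A3R2 in the tables. RDX held the strongest distal site of these lists, with 16.2 in replicate 1 and 18.3 in replicate 2.

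Of 4 genes for mucin-type O-glycan synthesis, 3 had a promoter region, against 67.9% of coding genes. GCNT1, a branching enzyme gene, had fold enrichment 9.81 in replicate 1 and 11.3 in replicate 2, B3GALT5, a galactosyltransferase gene, 9.72 and 10.0, and C1GALT1, which builds the basic disaccharide, 7.08 and 9.71. C1GALT1C1, the gene of its chaperone, had 1 peak in replicate 1 alone. These lists were written with earlier results of these data known.

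Peaks do not measure expression, so the labelled cell type could not be checked by transcript markers. Promoter regions were present at all 5 naive markers examined (KLF17, DPPA5, DNMT3L, TFAP2C and SUSD2), at POU5F1, SOX2 and NANOG, and at 3 of 4 fibroblast markers, with none at LUM, against 67.9% of coding genes. Their strength did not follow the lists. Among naive markers, TFAP2C had fold enrichment 22.4 in replicate 1 and 27.1 in replicate 2, and KLF17 had 2.90 and 6.88. SOX2 had 3.69 and 3.63, and COL1A2, a fibroblast collagen gene, had 18.2 and 20.1. How far human-aligned reads from the fibroblast layer enter these peaks was not tested.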

How the data were processed

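Both EP300 samples have 1 deposited peak table each, called per sample against input by the names of the peaks. Per the submitters' processing notes, fastp 0.19.11 (role not stated) and the build GRCh38 were used; the aligner, the peak caller and the handling of duplicate reads were not given in the sources used here. Each row is 1 summit with a signal value, which is a fold enrichment (a ratio), and with a p-value and a q-value, both as -log10, per the file headers. The deposited score, a whole number made from the q-value, was not used. Read depth is unknown, so precision could not be set from it.

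Rows of equal interval were joined, keeping the highest summit, on chromosomes 1 to 22 and X (Python 3.11.15, pandas 2.3.3, numpy 2.4.6, scipy 1.17.1). Shared peaks overlapped by at least 1 bp. A region took its gene and distance from its peak of higher percentile. Distal means more than 3 kb but at most 100 kb from the assigned start site. Rows that name podocalyxin only in the description of another gene, 12 in replicate 1 and 11 in replicate 2, were left out. Overlap, region and stitching steps were tested on simulated data. The members, gene lists, markers and alternatives were chosen with earlier results of these data known. Named genes were PODXL, the flanking coding genes, the family, partner and glycan genes, and the 3 genes closest in 4 standardised measures; EEF1B2P6 was added as the neighbour in the peak tables. No test was run, because 1 group of 2 samples allows none and the members were chosen by measured values.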

Additional observations from a re-analysis of the deposited data

How the results depend on the processing

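No paired analysis was possible because the 2 EP300 samples form 1 group, the input has no table and no result comes from a test. Of 38 settings tried on the counts, shares and ranks, 17 left the value within its limits and 21 moved it. Within limits did not mean unchanged: a fall from 15 to 10 reproducible regions was counted so. With highest summits required within 200 bp, the shared percentage fell to 62.5 of replicate 1 and 58.8 of replicate 2. That setting gave the 10 regions, 8 of them distal, with rank 65 and 12 regions in the cluster. At a fold enrichment of at least 5, 71.4% of replicate 1 peaks were shared, with 5 regions, 3 of them distal, rank 139 and 6 in the cluster. At a q-value threshold of 5 on the -log10 scale, 63.6% were shared in either list, with 7 regions, 5 of them distal, rank 113 and 14 in the cluster. These filters keep fewer peaks by construction. No share over all peaks was taken under them, so the lower percentages cannot be set against a background. Counting every region within 100 kb of the start site, whatever its assigned gene, gave 27 regions, 25 of them distal. Bridging gaps of 5 kb gave a cluster of 16. Leaving out one replicate gave 16 to 17 regions, 14 distal ones, a rank of 106 to 116 and 31 to 34 regions in the cluster. An overlap of 50% changed the rank alone, to 28. Of 25 settings on peak numbers, medians and spacing, 20 moved the value. Read depth is unknown and limits all peak counts.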
